A study of Mus musculus with 16 samples.

Results

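The 10 genes described here encode receptors for the Fc part of immunoglobulin G (Fcgr1, Fcgr2b, Fcgr3 and Fcgr4), the signalling adaptors Fcer1g, Tyrobp and Hcst, and the triggering receptors expressed on myeloid cells Trem1, Trem2 and Trem3. They were chosen by gene name, through the accession that the scanner files give for each probe. They are 10 of 20276 genes with a usable probe on the array, and each of them had 1 probe by this mapping. Of 55681 probes, 28919 had no gene symbol by it, and probes of these genes were not looked for among them.

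Gene expression was measured on 16 single-colour Agilent arrays in 8 groups of 2 mouse samples, numbered experiment 1 and experiment 2 in the labels. The sorted groups were Irf8KO MDPs, WT MDPs, Irf8KO cMoPs and WT cMoPs, all isolated from bone marrow and not transduced. MDPs are progenitors of monocytes and dendritic cells, and cMoPs are the monocyte-restricted progenitors that follow them. The cultured groups were 32Dcl.3, an immature myeloid line that depends on a growth factor, transduced with a pair of MSCV retroviral vectors and collected on day 3. The pair was MSCV-IRF8-IRES-hCD8t with MSCV-C/EBPalpha-IRES-puro in the cells called both, MSCV-IRF8-IRES-hCD8t with empty MSCV-IRES-puro in the IRF8 cells, and empty MSCV-IRES-hCD8t with MSCV-C/EBPalpha-IRES-puro in the C/EBPalpha cells. The empty cells had received both vectors without an insert. All cultured groups shared WEHI-3B conditioned medium and spinoculation, and all were of the single line. Age and strain of the mice, the sort gates and the extent of the Irf8 deletion are not given in the sources used here. Nothing says that the 2 samples of a group came from separate animals or cultures beyond their experiment number, so p-values measure the spread between these samples, which may be technical.

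Activating Fc receptors and TREMs have short tails and signal through a partner chain in the membrane. Fcer1g (the common gamma chain) and Tyrobp (DAP12) carry an immunoreceptor tyrosine-based activation motif (ITAM), which recruits the kinase Syk once Src family kinases have phosphorylated it. Hcst (DAP10) has no ITAM and instead binds phosphoinositide 3-kinase. Fcgr2b has an inhibitory motif (ITIM) of its own, which recruits phosphatases such as Inpp5d. Activating Fc receptors let macrophages, monocytes and neutrophils take up opsonised material. IRF8 is a transcription factor that monocyte development needs and that binds DNA as a partner of ETS factors such as PU.1. C/EBPalpha drives the granulocyte and monocyte programmes.

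The 75th percentile of processed intensity lay between 67.8 and 81.0 in the MDPs, between 455.6 and 568.0 in the cMoPs, and between 147.4 and 460.2 in the 32Dcl.3 cells. In the 32Dcl.3 cells this percentile followed the group. It was 460.2 and 445.3 in empty cells, 367.1 and 368.8 with IRF8, 218.2 and 214.7 with C/EBPalpha, and 153.9 and 147.4 with both. Changes between these groups therefore depend on scaling to it. The small number of arrays limits the precision of every value. The 4 MDP arrays shared a slide, as did the 4 cMoP arrays and the 8 32Dcl.3 arrays, so changes were computed within slides. Each of the 4 contrasts followed position on its slide, by column for MDP genotype and for IRF8, and by row for cMoP genotype and for C/EBPalpha. Group and position therefore cannot be told apart. The probe for Irf8 was well above background on the Irf8KO arrays, with log2 signals over the 75th percentile of 7.44 and 7.43 in Irf8KO MDPs against 8.02 and 7.96 in WT MDPs. In Irf8KO cMoPs it had 5.83 and 5.87, against 7.33 and 7.34 in WT cMoPs. Whether the probe lies in the deleted part is not known, so it does not check the genotype labels. The probes for Irf8 and Cebpa were not well above background on any 32Dcl.3 array, including those labelled as transduced, so the arrays do not check the vector labels. Xist was well above background on the 4 MDP arrays, and Ddx3y and Eif2s3y, which are Y-linked, on the 4 cMoP arrays, and Kdm5d on none, so stage, slide and this difference cannot be told apart.

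Promoter sequences are shown for the 4 receptor genes whose signal moved most with both factors in 32Dcl.3 cells or that carry a composite motif, since both factors bind DNA. RefSeq (GRCm38.p6) gave windows for 8 of the 10 genes, and the set of windows used here held none for Tyrobp and Trem3. Each line holds the 250 bases before the start, read 5′ to 3′ on the gene's strand, with matches to 4 searched motifs in capitals. For Fcgr3 it is the first of 2 windows, at a start inside the annotated gene.
Trem2 promoter, chr17:48346151-48346400, plus strand: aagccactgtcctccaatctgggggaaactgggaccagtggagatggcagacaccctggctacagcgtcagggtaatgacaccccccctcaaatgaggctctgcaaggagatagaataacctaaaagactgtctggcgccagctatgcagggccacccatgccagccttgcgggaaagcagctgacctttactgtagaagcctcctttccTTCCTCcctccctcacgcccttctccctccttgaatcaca
Fcgr4 promoter, chr1:171018676-171018925, plus strand: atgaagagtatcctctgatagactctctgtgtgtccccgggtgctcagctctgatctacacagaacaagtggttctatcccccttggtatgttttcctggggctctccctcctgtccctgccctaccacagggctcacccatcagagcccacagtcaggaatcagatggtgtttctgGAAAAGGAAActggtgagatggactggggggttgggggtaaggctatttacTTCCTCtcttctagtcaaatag
Fcgr3 promoter, chr1:171059395-171059644, minus strand: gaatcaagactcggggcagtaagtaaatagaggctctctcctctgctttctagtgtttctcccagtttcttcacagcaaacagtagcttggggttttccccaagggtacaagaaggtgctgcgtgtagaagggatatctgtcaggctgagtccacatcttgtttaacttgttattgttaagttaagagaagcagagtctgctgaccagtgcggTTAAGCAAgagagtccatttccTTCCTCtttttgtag
Fcgr2b promoter, chr1:170976072-170976321, minus strand: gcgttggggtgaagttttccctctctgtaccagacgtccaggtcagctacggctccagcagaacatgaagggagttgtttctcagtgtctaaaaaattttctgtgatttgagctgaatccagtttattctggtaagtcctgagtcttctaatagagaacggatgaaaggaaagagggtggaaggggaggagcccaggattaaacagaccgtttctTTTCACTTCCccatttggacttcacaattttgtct
The motifs were searched on both strands. GGAA followed after 2 bases by GAAA, which joins an ETS and an IRF core, was in 2.3% of 32851 promoter windows of all genes, and GAAA followed after 2 bases by GAAA, a pair of IRF cores, in 2.98%. GAGGAA, the core that PU.1 prefers, was in 23.3%, and TTGCNNAA, a C/EBP-like sequence, in 9.56%. The first and GAGGAA can share the letters GGAA, but no match did so in the 4 windows shown. Fcgr2b held the joined ETS and IRF cores as TTTCACTTCC on the opposite strand, 26 to 35 bases before the start. Fcgr4 held the pair of IRF cores as GAAAAGGAAA, 64 to 73 bases before the start. Fcgr3 held TTGCNNAA as TTAAGCAA on the opposite strand, 30 to 37 bases before the start. GAGGAA was in the windows of Fcgr3, Fcgr4 and Trem2, within 40 bases of the start and as TTCCTC on the opposite strand, and in those of Fcgr1 and Trem1. None of the 4 motifs was in the windows of Fcer1g and Hcst. A match describes letters in this window and shows no binding.

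On GRCm38.p6, Fcgr2b (1:170960558-170976071), Fcgr4 (1:171018926-171029761), Fcgr3 (1:171051169-171065915) and Fcer1g (1:171229572-171234349) lie close together on chromosome 1. Fcgr1 is on chromosome 3 (3:96282909-96293969). Tyrobp (7:30413782-30417582) and Hcst (7:30417712-30419854) are neighbours on chromosome 7, and Trem1 (17:48232713-48246927), Trem3 (17:48247677-48258848) and Trem2 (17:48346401-48352276) on chromosome 17. Fcgr2b and Fcgr3 are close relatives in the part that binds antibody. The letters of the array's probes were not used here, so whether a probe also catches the RNA of a relative was not tested. The Fcgr2b probe (A_51_P130095) was printed in 10 spots, and their log2 signals on an array had SDs of 0.039 to 0.070.

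Signal below is the log2 of the processed intensity over the array's 75th percentile, so that 0 is that percentile. Apart from Fcgr1, each gene was well above background on all 16 arrays. Fcgr1 was so on 10, the 8 32Dcl.3 arrays and 2 of the 8 progenitor arrays. No gene was therefore tested only because of a group in which it was high. A change is a difference of mean log2 signal with its standard error (SE), on 2 arrays a group. The words rose and fell are kept for changes whose p, adjusted by limma over all genes, lay below 0.05, and values in brackets after a change are such p-values. In bulk samples, fewer cells of a type and less RNA per cell cannot be told apart.

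**Figure D1:**
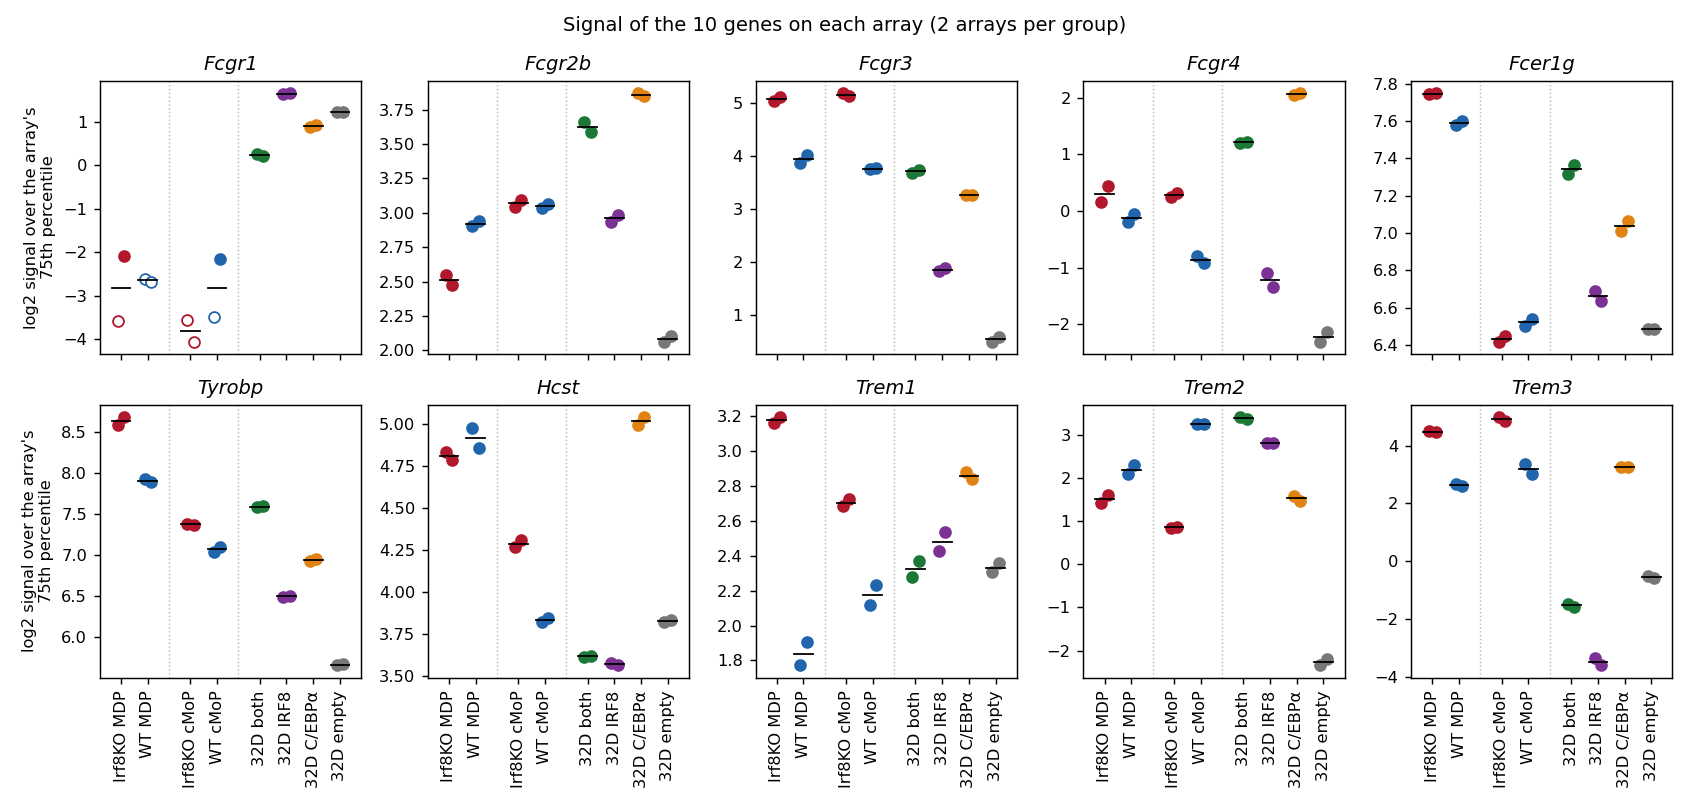
Log2 signal over the array's 75th percentile of each of the 10 genes (1 panel per gene, with its own vertical axis). Points are arrays, 2 per group, black bars are group means, open points are not well above background, and dotted lines part the 3 slides. Trem2 lies at 1.46 or higher in the 3 groups of 32Dcl.3 cells with a factor, and at -2.34 and -2.19 in empty cells.

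The comparison of Irf8KO with WT progenitors asked how the genes differ in the knockout, in MDPs and in cMoPs. In MDPs, Fcgr3, Fcgr4, Fcer1g, Tyrobp, Trem1 and Trem3 were higher in Irf8KO, and Fcgr2b and Trem2 were lower. The MDP call for Fcer1g rests on the scaling and the background correction, and that for Fcgr4 on either of 2 arrays. In cMoPs, Fcgr3, Fcgr4, Tyrobp, Hcst, Trem1 and Trem3 were higher in Irf8KO and Trem2 was lower, where the calls for Tyrobp and Hcst rest on the scaling. Among the 9 genes tested, the largest rise was that of Trem3 at both stages, by 1.85 ± 0.087 in MDPs and 1.74 ± 0.087 in cMoPs. The largest fall was that of Trem2, which fell by 0.68 ± 0.077 in MDPs and fell by 2.39 ± 0.077 in cMoPs.

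Of the 9 genes tested in MDPs, 6 rose and 2 fell (5 and 3 when arrays were scaled to the median, called the median scaling below). Of all 11960 genes tested, 51.3% changed, 22.7% upward and 28.6% downward (13.1% and 32.8% under the median scaling, 16.3% and 32.6% with normexp background correction). The median change was 0.43 over the 9 genes and -0.024 over all genes. In cMoPs 6 of 9 rose and 1 fell (4 and 3 under the median scaling), where 54% of all genes changed, 22.8% upward and 31.2% downward (9.11% and 58.8%). The median change was 0.46 over the 9 genes and -0.026 over all. At least 2-fold changes were called for 3 of the 9 in MDPs and 4 of the 9 in cMoPs, against 6.63% and 8.48% of all genes. The median scaling moved the median change of all genes to -0.12 in MDPs and -0.34 in cMoPs, so smaller changes depend on the scaling. Of all probes, 37.3% to 38.7% were well above background on MDP arrays and 43.1% to 44.8% on cMoP arrays. The array median there thus lay among probes mostly not well above background. Counts stayed at 6 and 2 in MDPs and 6 and 1 in cMoPs under other scalings. These were the percentile over probes detected on all arrays, quantile normalization and the deposited series values.

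Among the Fc receptors, Fcgr3, an activating receptor for immune complexes, had signals of 5.04 and 5.12 in Irf8KO MDPs, against 3.87 and 4.03 in WT MDPs. In Irf8KO cMoPs it had 5.19 and 5.14, against 3.75 and 3.78 in WT cMoPs. The knockout arrays lay above the WT arrays at both stages, and the rise was 1.13 ± 0.052 in MDPs (adjusted p = 5.6e-08) and 1.40 ± 0.052 in cMoPs (6.1e-09). Fcgr4, an activating receptor that prefers some IgG subclasses, had 0.17 and 0.44 in Irf8KO MDPs, against -0.20 and -0.06 in WT MDPs. It rose there by 0.43 ± 0.11 (adjusted p = 0.0094), and the call was lost without WT replicate 1 (0.36, adjusted p = 0.051) or without Irf8KO replicate 2 (0.29, 0.065). In cMoPs the groups were further apart, with 0.25 and 0.32 in Irf8KO against -0.80 and -0.92 in WT, a rise of 1.15 ± 0.11 (1.1e-05).

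Fcgr2b, the inhibitory receptor, had 2.55 and 2.48 in Irf8KO MDPs, against 2.90 and 2.94 in WT MDPs. It fell by 0.41 ± 0.044 (adjusted p = 3.0e-05). In cMoPs it had 3.04 and 3.1 in Irf8KO, against 3.03 and 3.06 in WT, a change of 0.02 ± 0.044 with a 95% interval of -0.08 to 0.12 (adjusted p = 0.72). Under the median scaling this change was -0.29 and called. Fcgr2b and Fcgr3, the inhibitory and the activating receptor, thus moved in opposite directions in MDPs. Fcgr1, the high-affinity receptor, was not tested in progenitors. Its signals were -3.57 and -2.10 in Irf8KO MDPs and -2.62 and -2.68 in WT MDPs, and only the second of these 4 was well above background. In Irf8KO cMoPs they were -3.57 and -4.06, against -3.48 and -2.15 in WT cMoPs, with only the last well above background.

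Of the adaptors, Tyrobp was called at both stages and Fcer1g and Hcst at 1 each. Tyrobp, the partner of the TREMs, had 8.59 and 8.69 in Irf8KO MDPs, against 7.93 and 7.89 in WT MDPs, a rise of 0.73 ± 0.044 (adjusted p = 4.4e-07). In cMoPs it had 7.38 and 7.37 in Irf8KO, against 7.04 and 7.10 in WT, a rise of 0.30 ± 0.044 (0.00019). Relative to the median change of all genes this was 0.33, but under the median scaling the change was -0.0087 and not called. Fcer1g, the partner of Fcgr3 and Fcgr4, had 7.74 and 7.75 in Irf8KO MDPs, against 7.58 and 7.60 in WT MDPs. It rose by 0.16 ± 0.035 (0.0036), which was 0.064 under the median scaling and -0.033 with normexp background correction, neither called. In cMoPs it had 6.42 and 6.45 in Irf8KO, against 6.50 and 6.54 in WT, and the change of -0.09 ± 0.035 missed the threshold (0.051) but was called at -0.40 under the median scaling. Hcst, which pairs with the receptor NKG2D, had 4.84 and 4.79 in Irf8KO MDPs, against 4.98 and 4.86 in WT MDPs, and was not called (-0.11 ± 0.043, 0.059), except without WT replicate 2 (-0.17, 0.0098), under the median scaling (-0.20) and with normexp (-0.30). In cMoPs it rose by 0.46 ± 0.043 (7.9e-06), with 4.27 and 4.31 in Irf8KO against 3.82 and 3.84 in WT, and the change was 0.14 and not called under the median scaling.

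The TREMs split. Trem1, which amplifies inflammatory responses of neutrophils and monocytes, had 3.16 and 3.20 in Irf8KO MDPs, against 1.77 and 1.90 in WT MDPs, and rose by 1.34 ± 0.057 (adjusted p = 3.0e-08). In cMoPs it had 2.68 and 2.73 in Irf8KO, against 2.12 and 2.23 in WT, a rise of 0.53 ± 0.057 (2.3e-05). Trem3, an activating receptor of mouse myeloid cells, had 4.51 and 4.47 in Irf8KO MDPs, against 2.68 and 2.61 in WT MDPs. It had 5.0 and 4.87 in Irf8KO cMoPs, against 3.35 and 3.03 in WT cMoPs. The rises of 3.6-fold in MDPs (6.2e-08) and 3.34-fold in cMoPs (5.3e-08) were far larger than the gaps between replicates. Trem2, a lipid receptor of macrophages and microglia, went the other way. It had 1.42 and 1.60 in Irf8KO MDPs, against 2.08 and 2.29 in WT MDPs, and fell by 0.68 ± 0.077 (4.8e-05). It had 0.85 and 0.87 in Irf8KO cMoPs, against 3.25 and 3.25 in WT cMoPs, a 5.25-fold fall (2.1e-09).

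**Figure D2:**
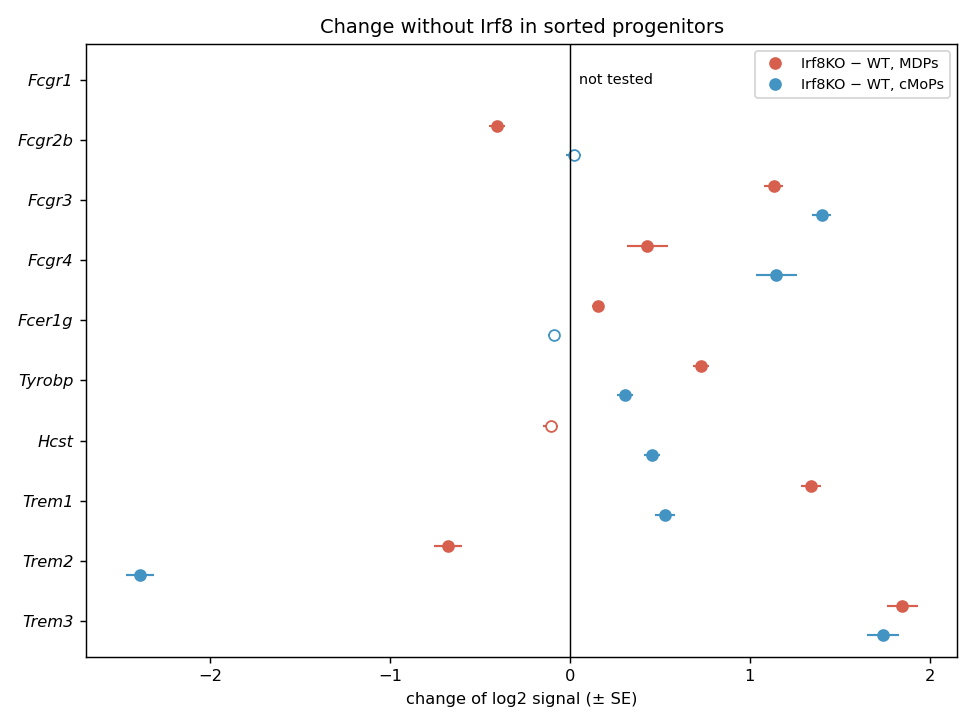
Change of log2 signal, Irf8KO minus WT, in MDPs (red) and cMoPs (blue), with bars of 1 SE. Filled points passed limma's adjusted p of 0.05, open points did not, and Fcgr1 was not tested. Trem2 lies left of 0 at both stages, at -0.68 and -2.39, and Trem3 right of 0 at 1.85 and 1.74.

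The effect of the knockout differed between the stages for 8 of 9 genes, where 24.7% of all genes differed, 11.5% upward and 13.2% downward (4.15% and 30.9% under the median scaling, 16.3% and 11.1% with normexp). By at least 2-fold, 1 of the 9 differed, against 4.03% of all genes. Fcgr2b, Fcgr3, Fcgr4 and Hcst had the more positive change in cMoPs, and Fcer1g, Tyrobp, Trem1 and Trem2 the more negative one, while the median scaling left 2 upward and 5 downward. Trem2 differed most, by -1.72 ± 0.11 (adjusted p = 2.8e-06), followed by Trem1 at -0.81 ± 0.081 (6.3e-05) and Fcgr4 at 0.72 ± 0.16 (0.0090). The change of Trem3 differed by -0.11 ± 0.12, with an interval of -0.38 to 0.17 (0.57), and was called without WT cMoP replicate 2 (-0.27, 0.049) and under the median scaling (-0.33). The call for Fcgr3, 0.27 ± 0.074 (0.025), was lost when any of 5 arrays was left out (WT MDP replicate 2, Irf8KO MDP replicate 1, both WT cMoP arrays or Irf8KO cMoP replicate 1, at 0.18 to 0.28), and it was 0.045 under the median scaling. Under that scaling Fcgr2b, at 0.21, was not called either, and neither was Fcer1g with normexp, at -0.12. The SD of the difference between replicate arrays was 0.20 and 0.22 in Irf8KO and WT cMoPs, against 0.30 and 0.29 in Irf8KO and WT MDPs, while the SE is shared.

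Neutrophil markers rose in Irf8KO cMoPs and went both ways in Irf8KO MDPs. Their 8 genes, summed as signal over the 75th percentile, came to 96.8 to 99.1 in Irf8KO MDPs, where Camp, Ltf, Ngp and Retnlg were not well above background, against 9.65 to 11.6 in WT MDPs, where Ltf, Ngp and Retnlg were not. In MDPs 3 of the 7 tested rose and 3 fell, with a median change of -0.77, although the sum was higher. The sum was 579 to 602 in Irf8KO cMoPs, against 36.5 to 36.7 in WT cMoPs, with Retnlg not well above background in either, and 7 of 7 tested rose, with a median change of 3.35. The 7 macrophage and monocyte markers came to 981 to 988 in Irf8KO MDPs against 1353 to 1379 in WT MDPs, and to 694 to 702 in Irf8KO cMoPs against 730 to 751 in WT cMoPs. Of 6 tested, 3 rose and 2 fell in MDPs, and 2 rose and 2 fell in cMoPs. The 8 basophil, mast cell and eosinophil markers came to 3.67 to 3.89 in Irf8KO MDPs against 16.5 to 17.0 in WT MDPs, and 6 of 6 tested fell. In Irf8KO MDPs 5 of these 8 (Fcer1a, Ms4a2, Cpa3, Prg2 and Cma1) were not well above background. In cMoPs this list went the other way in sum, at 7.29 to 7.92 in Irf8KO against 6.18 to 6.39 in WT, with 2 of 6 tested up and 3 down. The 4 erythroid markers came to 0.256 to 0.36 in Irf8KO MDPs, where none was well above background, against 3.02 to 3.34 in WT MDPs, and to 0.306 to 0.445 in Irf8KO cMoPs against 1.97 to 1.98 in WT cMoPs. The single erythroid marker tested was called lower at both stages, with measured changes of -5.17 in MDPs and -3.58 in cMoPs. No erythroid marker was well above background on 1 of the 2 Irf8KO cMoP arrays, or on either Irf8KO MDP array. Neither change is therefore a measure of size. The 5 B cell markers came to 50.3 to 51.2 in Irf8KO MDPs against 36.4 to 37.2 in WT MDPs, where 2 of 2 tested rose with a median of 1.67. In cMoPs the B cell sum was 15.6 to 15.7 in Irf8KO against 15.3 to 15.6 in WT, and 1 of the 2 rose and 1 fell. Of the 6 NK and T cell markers, Cd3g and Ncr1 were not well above background in any of the 8 groups. Klrb1c was not in the MDP groups and WT cMoPs, nor Il2rb in any sorted group, so few genes carry the sums below. The sum was 195 to 201 in Irf8KO MDPs against 155 to 157 in WT MDPs, and 120 to 125 in Irf8KO cMoPs against 61.3 to 62.1 in WT cMoPs. Of 3 tested, 2 rose in MDPs and 1 in cMoPs, and none fell. The part of these cell types in the changes of the 10 genes was not tested.

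The 5 progenitor markers (Kit, Cd34, Csf1r, Flt3 and Ly6c1) were well above background in all 4 sorted groups. They came to 1073 to 1084 in Irf8KO MDPs against 1553 to 1579 in WT MDPs, and to 706 to 715 in Irf8KO cMoPs against 803 to 825 in WT cMoPs. Of these 5, 2 rose and 3 fell in MDPs, and 1 rose and 3 fell in cMoPs. Csf1r and Ly6c1 are also in the macrophage and monocyte list, and Flt3 in the dendritic cell list, so these sums share genes. Dendritic cell markers came to 104 to 107.1 in Irf8KO MDPs against 82.8 to 87.0 in WT MDPs, and to 209 to 218 in Irf8KO cMoPs against 187 to 192 in WT cMoPs, with Xcr1 not well above background in any. Nor was Zbtb46 in either MDP group, or Itgax in WT cMoPs. Of 4 tested, 2 rose and none fell in MDPs, and 2 rose and 1 fell in cMoPs.

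Of 27 genes listed as other receptors that pair with the same adaptors, 16 were tested. In MDPs 9 rose and 1 fell, and in cMoPs 9 rose and 2 fell (6 and 2 under the median scaling). Klrd1, a subunit of NK receptors, was at least 5.53-fold higher in Irf8KO than in WT MDPs, and Clec5a, a Tyrobp-coupled lectin, at least 2.31-fold. Fcer1a, the IgE-binding chain that needs Fcer1g, was at least 1.86-fold lower. In cMoPs Pilrb2 rose by 2.24 ± 0.34 (adjusted p = 0.00023), while Pira2, a paired immunoglobulin-like receptor, was at least 3.41-fold lower in Irf8KO. Treml1, known from platelets and listed here without a test of its pairing with these adaptors, was at least 2.53-fold lower. For such bounds, a signal not well above background was raised to that of the array's faintest probe that was. It was kept where it already lay above that probe. The limit of detection of the probe itself was not used, so these bounds are approximate. The median change of this list was 0.66 in MDPs and 0.35 in cMoPs.

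The kinases and linkers downstream of ITAMs moved in both directions. Of 24 tested ITAM signalling genes 6 rose and 5 fell in MDPs (3 and 6 under the median scaling), and 11 rose and 5 fell in cMoPs (3 and 12), with medians of 0.053 and 0.12. The linker Blnk rose by 1.8 ± 0.22 and Lcp2 by 0.41 ± 0.095 in MDPs, the call for Lcp2 being lost under the median scaling and with normexp. In cMoPs the kinase gene Fgr was at least 1.94-fold higher in Irf8KO than in WT, and the linker Lat2 fell by 1.24 ± 0.057. Of 24 tested inhibitory receptors and phosphatases 9 rose and 6 fell in MDPs, and 12 rose and 8 fell in cMoPs (7 and 9 under the median scaling), with medians of 0.17 and 0.27. Inppl1, the phosphatase SHIP2, fell by 2.48 ± 0.16 in MDPs and fell by 3.99 ± 0.16 in cMoPs, where 1 of the 2 Irf8KO arrays was well above background, while the inhibitory receptor Pilra rose by 1.48 ± 0.19 and 1.55 ± 0.19. Lilrb4a, another inhibitory receptor, was at least 3.45-fold lower in Irf8KO than in WT MDPs and fell by 1.93 ± 0.27 in cMoPs.

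Of 5 tested other Fc receptors 2 rose and none fell in MDPs, and 3 rose and 1 fell in cMoPs (1 and 1 under the median scaling). Pigr, the transporter of polymeric antibodies, rose by 0.69 ± 0.076 in MDPs and 1.09 ± 0.076 in cMoPs, and Trim21, which binds antibody inside the cell, by 0.26 ± 0.068 in MDPs, where the median scaling and normexp left Trim21 uncalled. Fcgrt, the neonatal Fc receptor that recycles IgG, fell by 1.37 ± 0.11 in cMoPs (adjusted p = 2.1e-06), and Fcrl5 rose by 0.29 ± 0.060, against -0.022 under the median scaling. Of 2 tested other ITAM chains, Cd79b rose by 0.20 ± 0.033 in MDPs (0.10 and not called under the median scaling) and fell by 0.14 ± 0.033 in cMoPs.

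In 32Dcl.3 cells the comparisons asked what each factor and their combination changed against empty vectors. Of the 10 genes, Trem2 moved most with IRF8, at 33.4-fold the empty level, and with both factors, at 50.3-fold. With C/EBPalpha alone the largest rises were those of Fcgr4 (19.5-fold), Trem3 (14.2-fold) and Trem2 (13.8-fold). Trem3 fell 7.68-fold with IRF8, the change opposite to that with C/EBPalpha. Fcgr1 was lower with C/EBPalpha and with both factors, and higher with IRF8.

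With C/EBPalpha 9 of 10 genes rose and 1 fell, where 78.8% of all 13335 genes changed, 31.6% upward and 47.1% downward (20% and 59.5% under the median scaling, 41.7% and 37.3% with the percentile over probes detected on all arrays). With IRF8 8 rose and 2 fell, where 48.2% of all changed, 22.6% upward and 25.5% downward (22.2% and 15.3% under the median scaling). With both factors 6 rose and 3 fell (6 and 4 under the median scaling, 8 and 2 with the detected-probe percentile or quantile normalization), where 84.8% of all changed, 38.1% upward and 46.8% downward (18.6% and 66.5% under the median scaling, 49% and 37.3% with the detected-probe percentile). Median changes of the 10 genes were 1.52 with C/EBPalpha, 0.62 with IRF8 and 1.2 with both, against -0.14, -0.032 and -0.097 over all genes. The median scaling moved the values over all genes to -0.45, 0.0090 and -0.75. At least 2-fold changes were called for 7 of the 10 with C/EBPalpha, 4 with IRF8 and 5 with both, against 23.4%, 5.11% and 38.3% of all genes.

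The low-affinity Fc receptors rose with each factor. Fcgr4 had 2.05 and 2.08 with C/EBPalpha, -1.10 and -1.34 with IRF8 and 1.2 and 1.23 with both, against -2.31 and -2.14 in empty cells. Its rise was 4.29 ± 0.085 with C/EBPalpha (adjusted p = 7.2e-13), 1.00 ± 0.085 with IRF8 (1.5e-06) and 3.44 ± 0.085 with both (1.6e-12). The highest signal was thus with C/EBPalpha alone. Fcgr3 had 3.28 and 3.27 with C/EBPalpha, 1.83 and 1.88 with IRF8 and 3.69 and 3.75 with both, against 0.50 and 0.58 in empty cells. It rose by 2.74 ± 0.041, 1.32 ± 0.041 and 3.18 ± 0.041, and the cells with both factors had the highest signal. Fcgr2b had 3.87 and 3.85 with C/EBPalpha, 2.94 and 2.98 with IRF8 and 3.66 and 3.59 with both, against 2.06 and 2.10 in empty cells. Its rises of 1.78 ± 0.035, 0.88 ± 0.035 and 1.54 ± 0.035 put C/EBPalpha cells highest and empty cells lowest. Before scaling, the Fcgr2b intensity was 1939 and 1774 with both, against 1924 and 1912 in empty cells. The rise with both thus rests on the scaling.

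Fcgr1 did not follow the low-affinity receptors. It had 0.88 and 0.92 with C/EBPalpha, 1.63 and 1.66 with IRF8 and 0.27 and 0.22 with both, against 1.24 and 1.24 in empty cells. It fell by 0.34 ± 0.046 with C/EBPalpha (adjusted p = 2.5e-05), rose by 0.41 ± 0.046 with IRF8 (1.9e-05) and fell by 0.99 ± 0.046 with both (6.4e-10).

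Of the adaptors, Tyrobp had 6.93 and 6.95 with C/EBPalpha, 6.49 and 6.50 with IRF8 and 7.59 and 7.60 with both, against 5.65 and 5.67 in empty cells. It rose in each, by 1.27 ± 0.026, 0.83 ± 0.026 and 1.93 ± 0.026. Fcer1g had 7.01 and 7.06 with C/EBPalpha, 6.69 and 6.64 with IRF8 and 7.32 and 7.37 with both, against 6.48 and 6.49 in empty cells. It rose by 0.55 ± 0.032, 0.18 ± 0.032 and 0.85 ± 0.032, with no overlap between any of the 4 groups. Before scaling, its intensity went the other way and was highest in empty cells, at 41198 and 39956. It was 28145 and 28682 with C/EBPalpha, 37923 and 36678 with IRF8, and 24511 and 24301 with both. The rises of Fcer1g thus rest on the scaling. Hcst had 5.0 and 5.04 with C/EBPalpha, 3.58 and 3.56 with IRF8 and 3.61 and 3.62 with both, against 3.82 and 3.84 in empty cells. It rose by 1.19 ± 0.029 with C/EBPalpha, fell by 0.26 ± 0.029 with IRF8 and fell by 0.21 ± 0.029 with both (adjusted p = 2.5e-05). The last change, -0.11 relative to all genes, was 0.076 with the detected-probe percentile, 0.079 with quantile normalization and 0.10 in the deposited series values. Tyrobp and Hcst, neighbours on the chromosome, thus went opposite ways with IRF8.

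Trem2 had 1.58 and 1.46 with C/EBPalpha, 2.80 and 2.80 with IRF8 and 3.40 and 3.37 with both, against -2.34 and -2.19 in empty cells. Its rises of 3.79 ± 0.058, 5.06 ± 0.058 and 5.65 ± 0.058 had adjusted p-values of 8.2e-14, 2.0e-14 and 1.6e-15. Among 13335 genes it was the 26th highest change with IRF8 and the 58th with both. Under 17 alternatives of processing, the change of Trem2 with IRF8 lay between 4.16 and 5.14. That with both lay between 4.46 and 5.94, and that with C/EBPalpha between 2.87 and 3.99. Trem3 had 3.28 and 3.27 with C/EBPalpha, -3.37 and -3.61 with IRF8 and -1.47 and -1.58 with both, against -0.51 and -0.59 in empty cells. It rose by 3.82 ± 0.089 with C/EBPalpha, fell by 2.94 ± 0.089 with IRF8, the 12th lowest change of all genes, and fell by 0.97 ± 0.089 with both. Under 17 alternatives the change of Trem3 with IRF8 lay between -3.06 and -1.63, and that with both between -1.63 and -0.39. Trem1 had 2.88 and 2.84 with C/EBPalpha, 2.43 and 2.54 with IRF8 and 2.28 and 2.37 with both, against 2.31 and 2.36 in empty cells. It rose by 0.53 ± 0.047 with C/EBPalpha and by 0.15 ± 0.047 with IRF8 (0.021), a call lost without IRF8 replicate 2 (0.094, adjusted p = 0.20) or empty replicate 1 (0.12, 0.13). With both factors its change was -0.0096 ± 0.047, with an interval of -0.11 to 0.09 (0.85). It was called upward at 0.28 with the detected-probe percentile and downward at -0.67 under the median scaling. Before scaling, the Trem1 intensity was 1607 and 1534 with C/EBPalpha and 1973 and 2138 with IRF8, against 2277 and 2284 in empty cells. The rises of Trem1 thus rest on the scaling.

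**Figure D3:**
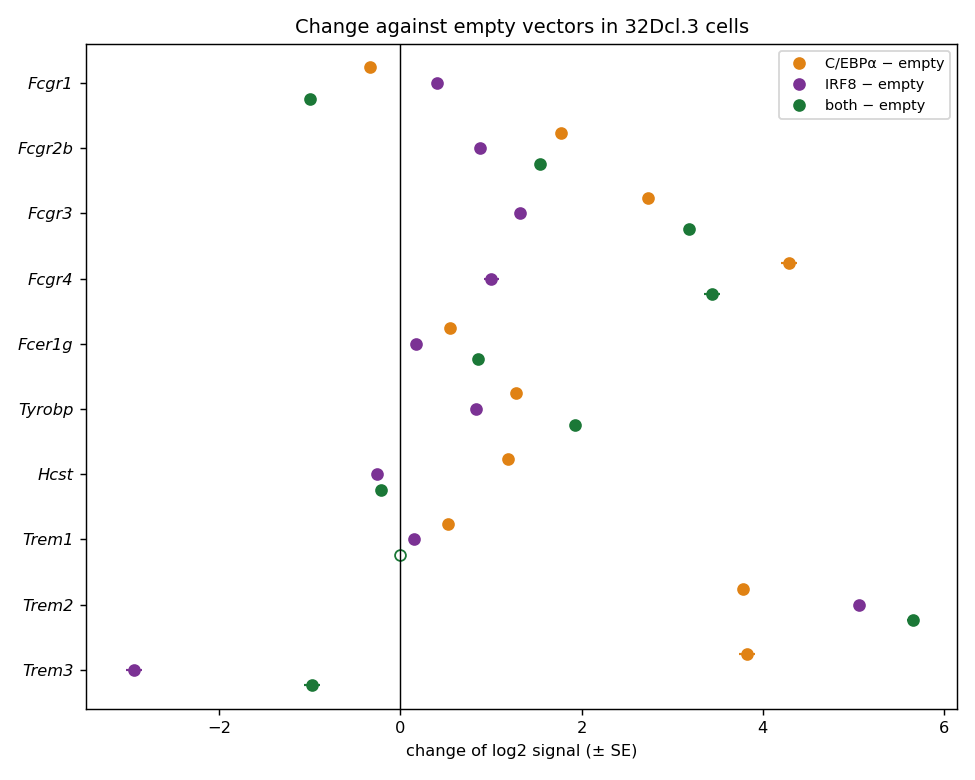
Change of log2 signal against empty vectors in 32Dcl.3 cells with C/EBPalpha (orange), IRF8 (purple) or both (green), with bars of 1 SE, most of them shorter than the point. Filled points passed limma's adjusted p of 0.05. Trem3 lies at 3.82, -2.94 and -0.97 and Trem2 at 3.79, 5.06 and 5.65.

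Both factors against each single factor asked what the second factor added. Against C/EBPalpha cells, 4 of 10 genes rose in cells with both and 6 fell (2 and 6 under the median scaling), where 72.4% of all genes changed, 34.4% upward and 38% downward (14.8% and 58.5%). At least 2-fold changes were called for 3 of the 10 and 15.9% of all. Trem3 was 27.8-fold lower in cells with both factors than in C/EBPalpha cells, a change of -4.80 ± 0.089 (adjusted p = 8.0e-13) and the lowest of all 13335 genes. Under 17 alternatives of processing this change lay between -5.14 and -3.71. The other changes downward were -1.40 ± 0.029 for Hcst, -0.85 ± 0.085 for Fcgr4, -0.65 ± 0.046 for Fcgr1, -0.54 ± 0.047 for Trem1 and -0.24 ± 0.035 for Fcgr2b. Trem2 rose by 1.87 ± 0.058, Tyrobp by 0.66 ± 0.026, Fcgr3 by 0.44 ± 0.041 and Fcer1g by 0.30 ± 0.032. Of these rises, those of Fcgr3 and Fcer1g were 0.097 and -0.044 under the median scaling and not called.

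Against IRF8 cells, 7 of 10 rose in cells with both and 2 fell (4 and 3 under the median scaling, 9 and 1 with the detected-probe percentile or quantile normalization), where 82.2% of all genes changed, 36.1% upward and 46.1% downward (13.3% and 70% under the median scaling, 49.9% and 34.7% with the detected-probe percentile). At least 2-fold changes were called for 5 of the 10 and 30% of all. Fcgr4 rose by 2.43 ± 0.085, Trem3 by 1.97 ± 0.089, Fcgr3 by 1.86 ± 0.041 and Tyrobp by 1.10 ± 0.026. Fcer1g rose by 0.68 ± 0.032, Fcgr2b by 0.66 ± 0.035 and Trem2 by 0.59 ± 0.058, but under the median scaling these 3 changes were -0.020, -0.034 and -0.11 and not called. Fcgr1 fell by 1.40 ± 0.046. Trem1 fell by 0.16 ± 0.047 (adjusted p = 0.0080), a call lost without IRF8 replicate 2 (-0.10, 0.10) or without replicate 1 of both (-0.11, 0.080), and turned to 0.14 with the detected-probe percentile. The change of Hcst was 0.045 ± 0.029, with an interval of -0.02 to 0.11 (0.17), and was called at -0.65 under the median scaling and at 0.34 with the detected-probe percentile.

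IRF8 against C/EBPalpha cells differed in all 10 genes, 2 higher and 8 lower with IRF8 (2 and 5 under the median scaling), where 76.4% of all genes differed, 48.6% upward and 27.8% downward (64% and 14.9% under the median scaling, 37% and 39.5% with the detected-probe percentile). At least 2-fold differences were called for 5 of the 10 and 18.5% of all. Trem3 was 109-fold lower with IRF8 than with C/EBPalpha, the 26th lowest change of all genes, and Fcgr4 9.76-fold lower. The size for Trem3 depends on the processing, with a change of -6.77 that lay between -6.98 and -4.95 under 17 alternatives. Its intensity in IRF8 cells before scaling was only 35.4 and 30.2. Trem2 was 2.43-fold higher with IRF8, at 1.28 ± 0.058, and Fcgr1 1.68-fold higher, at 0.75 ± 0.046. The other 6 genes were lower with IRF8, with changes between -0.37 ± 0.032 (Fcer1g) and -1.45 ± 0.029 (Hcst). The calls for Fcer1g, Tyrobp and Trem1 did not hold under the median scaling.

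The signals of each gene can thus be put in order across the 4 groups. From high to low, Fcgr4 and Fcgr2b were ordered C/EBPalpha, both, IRF8 and empty, and Fcgr3, Fcer1g and Tyrobp both, C/EBPalpha, IRF8 and empty. Trem2 was ordered both, IRF8, C/EBPalpha and empty, Trem3 C/EBPalpha, empty, both and IRF8, and Fcgr1 IRF8, empty, C/EBPalpha and both. For Hcst the order was C/EBPalpha, empty, both and IRF8. The arrays of the last 2 groups did not overlap, but their difference of 0.045 was not called by limma (adjusted p = 0.17). For Trem1 the order was C/EBPalpha, IRF8, then empty and both, whose arrays overlapped. Under the median scaling, the neighbours both and C/EBPalpha in Fcgr3 and Fcer1g, C/EBPalpha and IRF8 in Fcer1g and Tyrobp, C/EBPalpha and IRF8 in Trem1, and both and IRF8 in Fcgr2b and Trem2 were not told apart. Other neighbours turned with the scaling. Under the median scaling the cells with both factors lay below IRF8 cells in Hcst (-0.65) and below empty cells in Trem1 (-0.67). With the detected-probe percentile they lay above empty cells in Hcst (0.076), and above both IRF8 cells (0.14) and empty cells (0.28) in Trem1, and all of these differences were called.

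The interaction, the change with both factors minus the sum of the single changes, was called negative for 9 genes and positive for 1 (10 and 0 under the median scaling). Of all genes 55.7% had a called interaction, 23.8% upward and 31.9% downward (5.85% and 57.9% under the median scaling, 30.9% and 26.1% with the detected-probe percentile). Sizes of at least 2-fold were called for 6 of the 10 and 10.2% of all. Trem2 had the largest, at -3.20 ± 0.082 (adjusted p = 1.0e-10), the 29th lowest of all genes: both factors gave 5.65 and the single changes added to 8.85. For Fcgr4 both gave 3.44 and the sum was 5.29, and for Fcgr3 both gave 3.18 and the sum was 4.05. For Trem3 both gave -0.97 and the sum was 0.88, and for Fcgr1 both gave -0.99 and the sum was 0.066. For Fcgr2b both gave 1.54 and the sum was 2.65, for Hcst -0.21 and 0.94, and for Trem1 -0.0096 and 0.67. Tyrobp came nearest to the sum among the 9, with 1.93 for both and 2.11 for the sum (-0.18 ± 0.037, 0.0017), and was not called with the detected-probe percentile (-0.086). Fcer1g was above its sum, with 0.85 for both and 0.73 for the sum, but its interaction of 0.13 ± 0.045 (0.031) was lost when any of 5 arrays was left out (both empty arrays, C/EBPalpha replicate 1, IRF8 replicate 2 or replicate 2 of both, at 0.099 to 0.13), was 0.0031 with normexp and was -0.26 under the median scaling.

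**Figure D4:**
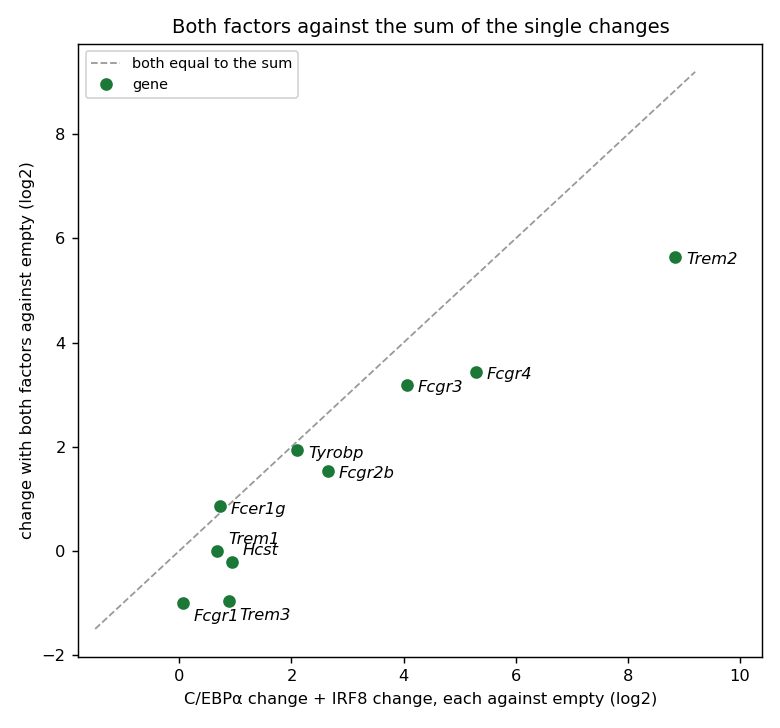
Change with both factors against empty vectors (vertical, log2) beside the sum of the C/EBPalpha and IRF8 changes (horizontal, log2), 1 point per gene in 32Dcl.3 cells. On the dashed line the change with both equals the sum. Fcer1g lies above it, at 0.85 for both and 0.73 for the sum, where the median scaling puts it below, and the other 9 genes lie below it.

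Neutrophil markers were summed to 3188 to 3232 with C/EBPalpha, 43.0 to 43.4 with IRF8 and 1788 to 1795 with both, against 68.4 to 69.8 in empty cells. All 8 rose with C/EBPalpha and all 8 with both, and 2 rose and 5 fell with IRF8. Mmp8 and Retnlg were not well above background in the IRF8 and empty cells. The 7 macrophage and monocyte markers came to 57.6 to 60.2 with C/EBPalpha, 153 to 155 with IRF8 and 203 to 207 with both, against 61.2 to 62.2 in empty cells. Of the 5 tested, 4 rose and 1 fell in each of the 3 comparisons. Cx3cr1 was not well above background in any 32Dcl.3 group, nor was Kit, a stem and progenitor marker, while Ccr2 was well above background in every group but the empty cells. Basophil, mast cell and eosinophil markers came to 19.6 to 20.0 with C/EBPalpha, 26.0 to 27.4 with IRF8 and 5.2 to 5.27 with both, against 36.9 to 37.1 in empty cells, with Fcer1a, Ms4a2 and Cma1 not well above background in any of the 4. Of the 5 tested, 3 rose and 1 fell with C/EBPalpha, with a median change of 1.06, although the sum was lower. With IRF8 5 fell and none rose, and with both 4 fell and none rose. Erythroid markers came to 0.654 to 0.671 with C/EBPalpha, 0.868 to 0.914 with IRF8 and 0.532 to 0.58 with both, against 2.37 to 2.6 in empty cells, and 2 of 3 tested fell in each comparison. The part of these programmes in the changes of the 10 genes was not tested.

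Of the genes listed as other receptors that pair with the adaptors, 18 were tested. With C/EBPalpha 13 rose and 2 fell (13 and 4 under the median scaling), with IRF8 10 rose and 2 fell, and with both 15 rose and 1 fell (13 and 4), with medians of 1.54, 0.62 and 2.18. Clec4n, the Fcer1g-coupled fungal lectin dectin-2, rose by 6.23 ± 0.041 with IRF8 (adjusted p = 3.2e-16) and 8.74 ± 0.041 with both (1.0e-17). Pira2 rose by 2.33 ± 0.044 with IRF8 and 4.08 ± 0.044 with both, and Cd300c2 by 2.35 ± 0.13 with IRF8. With C/EBPalpha, Clec5a was at least 11.3-fold higher than in empty cells, and the signal-regulatory receptors Sirpb1a and Sirpb1b at least 4.61-fold and 4.5-fold. Pira2 has near-identical relatives, and whether its probe tells them apart was not tested.

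ITAM signalling genes again moved both ways, with 9 up and 10 down of 22 tested with C/EBPalpha (7 and 13 under the median scaling), 11 and 4 with IRF8, and 9 and 11 with both (5 and 14), at medians of -0.039, 0.15 and -0.12. Prkcd, a protein kinase C, rose by 1.39 ± 0.035 with IRF8 and 2.35 ± 0.035 with both, and the adaptor Sh3bp2 by 1.25 ± 0.040 with IRF8. Lat, a linker known from T cells and mast cells, fell with each, by changes of -1.70 ± 0.11 with C/EBPalpha, -0.89 ± 0.11 with IRF8 and -2.24 ± 0.11 with both. Lcp2 rose by 1.35 ± 0.090 and Pik3cd, a phosphoinositide 3-kinase subunit, fell by 1.17 ± 0.028 with C/EBPalpha.

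Of 23 tested inhibitory receptors and phosphatases, 14 rose and 6 fell with C/EBPalpha (12 and 9 under the median scaling), 8 and 5 with IRF8, and 15 and 7 with both (8 and 13), at medians of 0.53, 0.073 and 0.45. Pirb, the inhibitory partner of the Pira receptors, rose by 2.56 ± 0.033, 1.86 ± 0.033 and 3.22 ± 0.033, and Pilra by 3.55 ± 0.065, 0.78 ± 0.065 and 2.88 ± 0.065. Cd300lf rose by 2.61 ± 0.056 with C/EBPalpha, Ptpn6, the phosphatase SHP-1, by 0.59 ± 0.031 with IRF8, and Cd22 by 2.24 ± 0.077 with both. Of 7 tested other Fc receptors 5 rose with C/EBPalpha, 3 with IRF8 and 6 with both, and none fell (2, 3 and 4 under the median scaling, with 1 fall each with C/EBPalpha and with both). Pigr rose by 2.38 ± 0.055, 0.28 ± 0.055 and 2.76 ± 0.055, and Fcgrt by 1.51 ± 0.063 with IRF8 and 2.00 ± 0.063 with both. Of 4 tested other ITAM chains 4 rose with C/EBPalpha, 1 fell with IRF8, and 2 rose and 1 fell with both (1 and 2 under the median scaling). Cd79b fell by 1.11 ± 0.083 with IRF8 and fell by 2.85 ± 0.083 with both, and Cd3d rose by 2.42 ± 0.10 with C/EBPalpha. The counts of these lists are descriptions beside the shares of all genes given above.

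**Figure D5:**
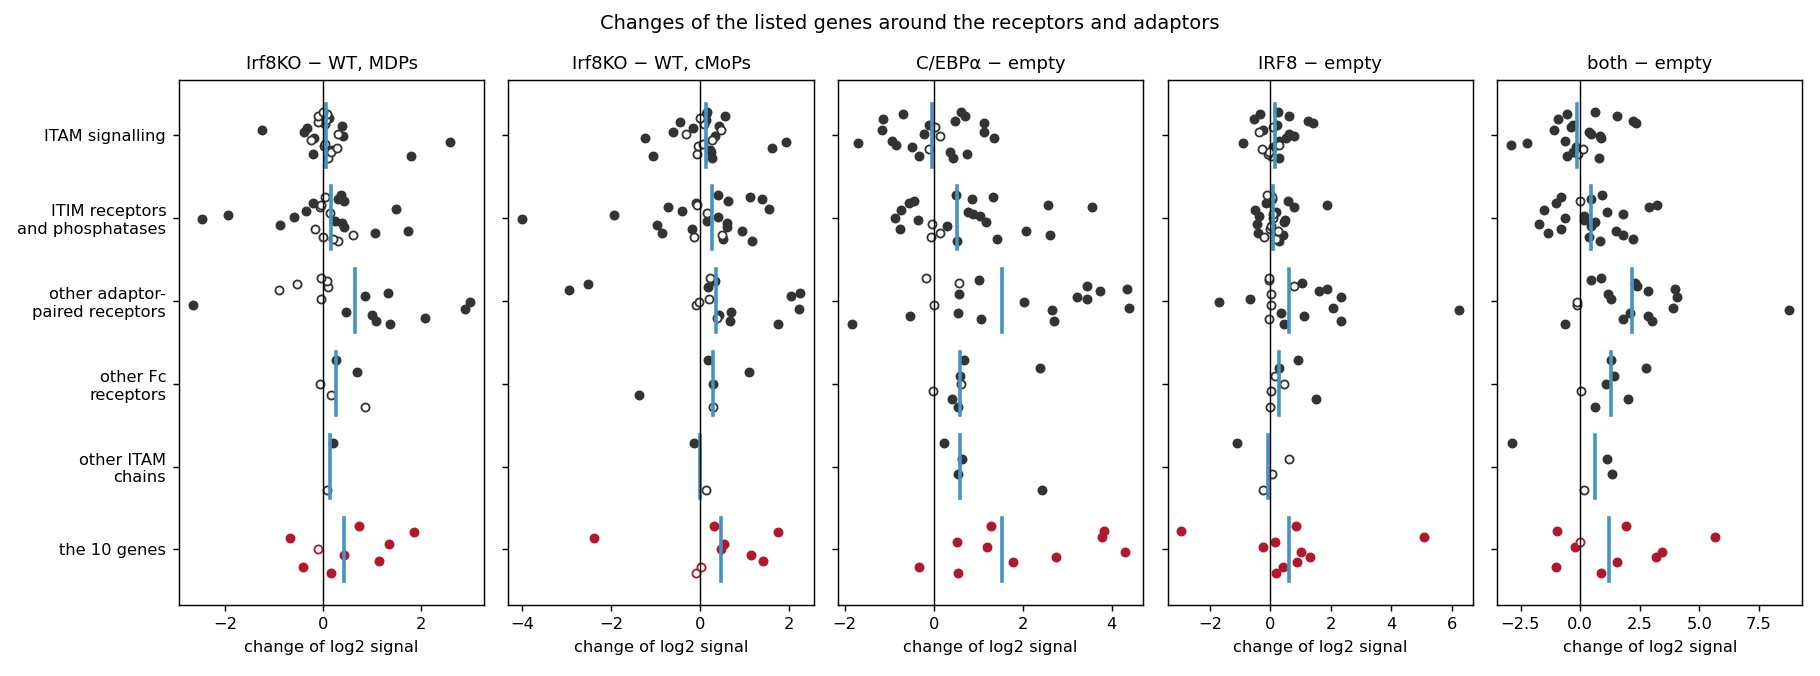
Change of log2 signal for genes of 5 related lists (dark) and the 10 genes (red) in 5 comparisons, each panel with its own horizontal axis. Filled points passed limma's adjusted p of 0.05, open points did not, and blue bars are medians of a list. The rightmost point of the panel for both factors is Clec4n, at 8.74.

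The genes with the signal most like each member were found by Pearson correlation over the 16 arrays, each value taken minus its slide's mean, among 11191 genes kept in both systems (11192 for Fcgr1). The arrays share slides and scaling, 8 of them are 32Dcl.3 cells, and these values are descriptions. Trem2 was most like Naaa, a lysosomal amidase (r = 0.986), Acox3 (0.978) and Ppm1m (0.973). Trem3 was most like B3gnt2 (0.992), Ero1a (0.978) and Eva1b (0.977), and Fcgr4 like Lrmda (0.993), Abcc5 (0.989) and Gm21944 (0.989). Fcgr3 was most like Itpripl2 (0.991), Osgin1 (0.991) and Fam234a (0.990), and Fcgr2b had Cotl1 (0.989) and Sirt7 (0.988) among its 3 closest genes. Tyrobp was most like Dnajb14 (0.993), Ccndbp1 (0.989) and Xaf1 (0.989), Fcer1g like Amn1 (0.986), Ptk7 (0.986) and Smtn (0.985), and Hcst like Agpat2 (0.989), C8g (0.989) and Slc16a3 (0.986). Trem1 and Fcgr1 had no gene so close, with Oxld1 at 0.942 for Trem1 and Gtf2f1 at 0.829 for Fcgr1, whose progenitor signals were mostly not well above background.

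Among the members themselves the highest correlation was that of Fcgr3 with Tyrobp (0.954), followed by Fcer1g with Tyrobp (0.925) and Fcgr3 with Fcgr4 (0.915). Hcst correlated with Trem3 at 0.903 and with its chromosomal neighbour Tyrobp at 0.107. Trem2 correlated with Trem1 at -0.151, and Fcgr1 was below 0 with each of the other 9.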

How the data were processed

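Total RNA was extracted with a micro-scale column kit and labelled with a low-input 1-colour kit, per the labels' protocols. The spot intensity values were deposited by the authors as Agilent Feature Extraction 10.7.3.1 output (protocol GE1_107_Sep09, mouse build mm9), background-subtracted and detrended within the array and not normalized between arrays, per the file headers. The flags for well above background and for outliers are other values of the same deposited scanner files, per the file headers. A table of series values, also linear intensity deposited by the authors, served as an alternative, with its normalization not stated in those sources. By its values, it held the MDP and cMoP scanner signals times a constant per array and quantile-normalized 32Dcl.3 signals.

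Outlier spots were left out and spots of a probe averaged. Each array's log2 signal was taken minus that of its 75th percentile over probes. A probe was kept in a system (8 progenitor arrays or 8 32Dcl.3 arrays) if, in 1 or more of the 4 groups, both arrays had it well above background, and the brightest probe stood for a gene, giving 11960 and 13335 genes. Group means were compared within slides with limma 3.58.1 (R 4.3.3, data.table version 1.17.8; lmFit, eBayes with an intensity trend, two-sided, Benjamini-Hochberg over all genes, threshold 0.05). The 4 groups of a system shared 1 estimate of the spread, with 4 residual and 6.09 or 7.25 prior degrees of freedom. On data simulated for both factors against empty vectors (13335 genes), 42 of 50 genes changed by 1 on the log2 scale were recovered, and 34 of 50 changed by 0.5. For Irf8KO against WT MDPs these were 40 and 31 of 50. In the first simulation 13135 genes had no change, whereas 84.8% of genes were called in the data, so these rates need not hold for the data. Python 3.11.15 and matplotlib 3.10.9 drew the figures.

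The alternatives were the array median, the percentile over detected probes, quantile normalization, normexp background correction (offset 50), the deposited series values, 2 other filters on dim probes, dim values raised to the faintest detected probe, the mean of a gene's probes, no trend, fewer arrays in the fit, each array left out and the experiment number as a block. Normexp was planned on the mean signal of a spot and was run on the median signal, which the files used here hold. A fit of all probes was added after the data were seen. Gene text was limited to all members, the 3 called genes of each list with the largest change in the 5 comparisons with WT or empty vectors (some by 1 example), and the 3 genes most correlated with a member. Some genes that this rule or the marker lists name are not reported here. The members and lists were chosen with earlier results of these data known. Promoters and coordinates are from RefSeq on GRCm38.p6.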

Additional observations from a re-analysis of the deposited data

Results flagged for a closer look

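The effect of the Irf8 knockout differed between cMoPs and MDPs, by a test of the difference itself (limma, adjusted p under 0.05), in 8 of 9 genes, where 24.7% of all genes differed. The difference, cMoPs minus MDPs on the log2 scale, was 0.43 for Fcgr2b, 0.27 for Fcgr3, 0.72 for Fcgr4 and 0.56 for Hcst. It was -0.25 for Fcer1g, -0.42 for Tyrobp, -0.81 for Trem1 and -1.72 for Trem2. Of 20 alternatives, 9 lost the call for Fcgr3 and 1 each those for Fcgr2b and Fcer1g. Stage coincided with slide and scan.

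In 32Dcl.3 cells the effect of C/EBPalpha differed with and without IRF8 in all 10 genes, by the interaction in the same test, where 55.7% of all genes had a called interaction. The interaction was -1.06 for Fcgr1, -1.11 for Fcgr2b, -0.87 for Fcgr3, -1.85 for Fcgr4, 0.13 for Fcer1g and -0.18 for Tyrobp. It was -1.15 for Hcst, -0.68 for Trem1, -3.20 for Trem2 and -1.85 for Trem3. The call for Fcer1g was lost under 10 of 20 alternatives and its sign turned under 1, the array median, and that for Tyrobp was lost with the percentile over detected probes. Groups of 2 arrays are too small for a test of single arrays that stand apart.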

How the results depend on the processing

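The 342 counts of called members and called genes under an alternative that could be compared stayed within 1.5 times the value reported. With 9 or 10 members tested, a member count could not rise that far, and the counts pool both directions. By direction, both factors against IRF8 went from 7 members up and 2 down to 4 and 3 under the array median. The share of all genes called upward there went from 36.1% to 13.3%. For single genes, 1638 values under an alternative kept their direction and their side of the threshold, 35 lost the call, 14 gained it and 19 turned. Under the array median, the changes that turned were -0.29 for Fcgr2b and -0.0087 for Tyrobp in Irf8KO against WT cMoPs, -0.044 for Fcer1g in both factors against C/EBPalpha, and, in both factors against IRF8, -0.034 for Fcgr2b, -0.020 for Fcer1g, -0.65 for Hcst and -0.11 for Trem2. The interaction of Fcer1g was -0.26 there. In both factors against empty vectors, Hcst was 0.076 with the percentile over detected probes, 0.079 with quantile normalization and 0.10 in the deposited series values, and Trem1 was 0.28, 0.24 and 0.29. Trem1 in both factors against IRF8 was 0.14, 0.11 and 0.17 under the same 3. With normexp, Fcer1g was -0.033 in Irf8KO against WT MDPs and Hcst -0.19 in both factors against IRF8. The scaling itself moves all genes of a comparison by 1 amount, which is how these small changes turned, while the cause was not tested for quantile normalization, normexp and the deposited series values. Leaving out 1 array at a time left 1 array in its group, and the member calls that this lost or gained are named above. The experiment number did not pair the samples, with correlations of same-numbered deviations between -0.067 and 0.078. With it as a replicate block 97 of 97 results kept their call. Members called with the block were 8 in MDPs, 7 in cMoPs and 10 for the interaction. Of all genes, 6078 and 6398 of 11960 were called in MDPs and cMoPs, and 7367 of 13335 for the interaction. A random block for slide was not run, since slide coincides with stage, and the comparisons that use all 4 groups gave no value with fewer arrays. With 2 arrays a group, small changes of genes near background, such as Fcgr1 in progenitors, could not be resolved.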
